A study of Mus musculus with 12 samples.

Results

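NMDA receptors are glutamate-gated ion channels of the excitatory synapse, and the genes of their subunits were examined in young projection neurons of the mouse cerebral cortex. The genes were the 6 symbols Grin1, Grin2a, Grin2b, Grin2c, Grin2d and Grin3a, matched by name among the 56734 genes of the deposited table. All 6 were found, and 5 of them passed a filter of at least 1 TPM in at least 3 of the 12 libraries, a filter that 17606 genes passed. Grin2c did not pass and is described by its values alone. TPM (transcripts per 1000000) scales each gene by its length and each library to a sum of 1000000. Levels of different genes can be set side by side only as far as the gene lengths and the assignment of reads allow. The treatment of shared reads is not given. All levels are of RNA and not of subunit protein.

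The libraries came from layer 2 or layer 3 callosal projection neurons of wild-type cortex at postnatal day 7 (P7) or postnatal day 3 (P3). There were 4 groups of 3 libraries, P7 layer 2, P7 layer 3, P3 layer 2 and P3 layer 3, and each library pooled the dissected neurons of 2 to 3 pups. The neurons of all groups had been made to express the red fluorescent protein mCherry by electroporation in utero and were sorted on that fluorescence. Layer 2 libraries carry the number 15 in their names and layer 3 libraries the number 14, a difference whose meaning the labels do not state and which cannot be told apart from the layer.

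A functional NMDA receptor needs the GluN1 subunit, encoded by Grin1, which binds the co-agonist glycine or D-serine and is joined by GluN2 subunits that bind glutamate. The GluN2 subunit sets how long the channel stays open and which proteins hold it at the synapse, and in the rodent forebrain GluN2B is abundant before and soon after birth while GluN2A is known to increase during postnatal life. GluN2D is known from embryonic brain and from interneurons, GluN2C from cerebellar granule cells and astrocytes, and GluN3A from juvenile synapses, where it lowers calcium entry.

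The proximal promoters of Grin1, the most abundant member, and Grin2c, the least abundant, are shown as the windows used here, and the genes stand at the ends of the range of levels. Both are the 250 bases before the RefSeq gene start on build GRCm38.p6, read 5′ to 3′ on the minus strand, at chr2:25319188-25319437 for Grin1 and chr11:115267244-115267493 for Grin2c. Capitals mark the E-box CACGTG in Grin1 and the GC box GGGCGG, read on either strand, in Grin2c.
Grin1: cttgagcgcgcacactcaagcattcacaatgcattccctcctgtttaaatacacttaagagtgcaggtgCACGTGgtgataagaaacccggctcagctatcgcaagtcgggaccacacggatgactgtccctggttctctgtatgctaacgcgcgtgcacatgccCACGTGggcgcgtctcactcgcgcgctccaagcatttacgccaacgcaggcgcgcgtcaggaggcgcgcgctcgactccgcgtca
Grin2c: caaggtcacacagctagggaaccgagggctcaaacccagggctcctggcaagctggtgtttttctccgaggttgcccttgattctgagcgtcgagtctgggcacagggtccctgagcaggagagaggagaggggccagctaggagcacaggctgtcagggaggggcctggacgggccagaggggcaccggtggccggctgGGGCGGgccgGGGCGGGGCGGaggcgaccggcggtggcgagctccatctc
The Grin1 window held 2 copies of CACGTG and the Grin2c window none, while the Grin2c window held 3 copies of GGGCGG, neighbouring copies of which can share a base, and the Grin1 window none. CACGTG was found in 6.02% and GGGCGG in 32.7% of 32851 RefSeq promoter windows of the same length. Both windows lacked TGACGTCA, the cAMP response element, which 1.55% of windows held, and the palindromic site of the factor NRF1, which 0.782% held. Matches were sought on both strands and describe letters only. Grin2a, Grin2b, Grin2d and Grin3a are named here without a promoter sequence.

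The number of genes at 1 TPM or more ran from 15349 to 16948 over the libraries, and correlations of log2(TPM + 1) over the tested genes were 0.961 to 0.982 between libraries of a group. Sequencing depth cannot be read from TPM and is unknown here. The excitatory neuron marker Slc17a7 was above 0 in every library, with a lowest value of 18.8 TPM. Its level was not constant over the groups. It averaged 171, 321, 20.9 and 33.4 TPM in P7 layer 2, P7 layer 3, P3 layer 2 and P3 layer 3. Markers of other cells were present too. Gad1, the GABA-synthesising enzyme of interneurons, lay between 2.76 and 23.2 TPM, the astrocyte water channel Aqp4 between 1.76 and 85.8 TPM, and the microglial receptor Cx3cr1 between 21.4 and 113 TPM. Of the libraries, 3 stood apart: P7 layer 3 replicate 1 had the highest summed level of 12 oligodendrocyte lineage markers (1394 TPM), P3 layer 2 replicate 2 the highest of 10 microglia markers (3103 TPM), and P3 layer 3 replicate 1 held 234 TPM of the choroid plexus transcript Ttr, which reached at most 2.20 TPM elsewhere. P3 layer 2 replicate 2 also had the highest summed level of 9 progenitor and radial glia markers (6814 TPM). Its mean log2(TPM + 1) of 12 pan-neuronal genes (7.40) was the lowest, as were its Grin1, Grin2a and Grin2d levels (22.8, 0.929 and 2.33 TPM). P7 layer 3 replicate 1 also had the highest summed level of 15 interneuron markers (357 TPM). Results that change without the 3 libraries that stood apart are given with and without them. P7 layer 2 replicate 2 was kept in those fits. It had the highest summed level of 12 astrocyte markers (1584 TPM) and the lowest pan-neuronal mean of the P7 libraries (8.41). Transcripts of the Y-linked gene Eif2s3y lay between 0 and 8.35 TPM in P3 layer 2 and between 23.7 and 98.9 TPM in P3 layer 3. They lay between 15.2 and 73.5 TPM in P7 layer 2 and between 10.4 and 33.9 TPM in P7 layer 3. The pools of P3 layer 2 thus differed in that respect from those of every other group. The age comparison in layer 2 and the layer comparison at P3 both hold this difference, whose part was not tested.

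Grin1, the obligatory subunit gene, was the most abundant member in every library. It had 109, 90.6 and 102 TPM in P7 layer 2, 134, 116 and 124 TPM in P7 layer 3, 32.8, 22.8 and 31.2 TPM in P3 layer 2, and 45.1, 58.0 and 45.8 TPM in P3 layer 3. The ranges of the 4 groups did not overlap, with P7 layer 3 highest, then P7 layer 2, P3 layer 3 and P3 layer 2. The group means were 101 ± 9.14, 125 ± 8.81, 28.9 ± 5.33 and 49.6 ± 7.28 TPM in P7 layer 2, P7 layer 3, P3 layer 2 and P3 layer 3 (SD, n = 3 each). Grin1os, an antisense transcript at the Grin1 locus, lay between 0 and 2.04 TPM. The sources used here do not say whether reads were counted by strand, so reads of the overlap cannot be told apart.

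Grin2b was the most abundant GluN2 gene by group mean in all 4 groups. It had 16.0, 12.6 and 20.4 TPM in P7 layer 2, 15.04, 13.5 and 15.1 TPM in P7 layer 3, 6.94, 6.53 and 16.1 TPM in P3 layer 2, and 8.04, 5.85 and 12.6 TPM in P3 layer 3. P3 layer 2 replicate 3 stood well above the other libraries of its group and inside the range of P7 layer 2, while the P7 and P3 libraries of layer 3 did not overlap. The group means in P7 layer 2, P7 layer 3, P3 layer 2 and P3 layer 3 were 16.3 ± 3.91, 14.5 ± 0.94, 9.87 ± 5.43 and 8.83 ± 3.44 TPM (SD, n = 3 each).

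Grin2d came next among the GluN2 genes by group mean. It had 8.76, 9.88 and 7.36 TPM in P7 layer 2, 8.48, 8.27 and 9.95 TPM in P7 layer 3, 2.88, 2.33 and 2.38 TPM in P3 layer 2, and 6.87, 5.06 and 5.31 TPM in P3 layer 3. The groups at P7 overlapped each other and lay above both groups at P3, and every P3 layer 2 library was below every P3 layer 3 library.

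Grin2a, whose product gives receptors with fast decay, was lower than Grin2b in all 12 libraries. It had 5.45, 4.78 and 6.34 TPM in P7 layer 2, 4.28, 3.76 and 5.35 TPM in P7 layer 3, 1.93, 0.929 and 1.47 TPM in P3 layer 2, and 1.90, 2.27 and 2.71 TPM in P3 layer 3. All P7 libraries lay above all P3 libraries, and within each age the layers overlapped.

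Grin3a, the GluN3 gene among the members, varied widely between libraries of a group. It had 4.60, 7.42 and 3.63 TPM in P7 layer 2, 11.8, 6.99 and 3.96 TPM in P7 layer 3, 2.89, 3.41 and 4.31 TPM in P3 layer 2, and 1.63, 4.85 and 2.51 TPM in P3 layer 3. The P7 and P3 ranges overlapped in both layers. P7 layer 3 replicate 1, one of the libraries that stood apart, held the highest value.

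Grin2c was at or near 0 throughout. It had 0.226, 0.157 and 0.388 TPM in P7 layer 2, 0.860, 0.385 and 0 TPM in P7 layer 3, 0.449, 0.447 and 0.314 TPM in P3 layer 2, and 0.341, 0.191 and 0 TPM in P3 layer 3. No library reached 1 TPM, and the ranges of the 4 groups overlapped. Grin3b, the GluN3 gene outside the list of members, lay between 0 and 0.314 TPM.

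**Figure D1:**
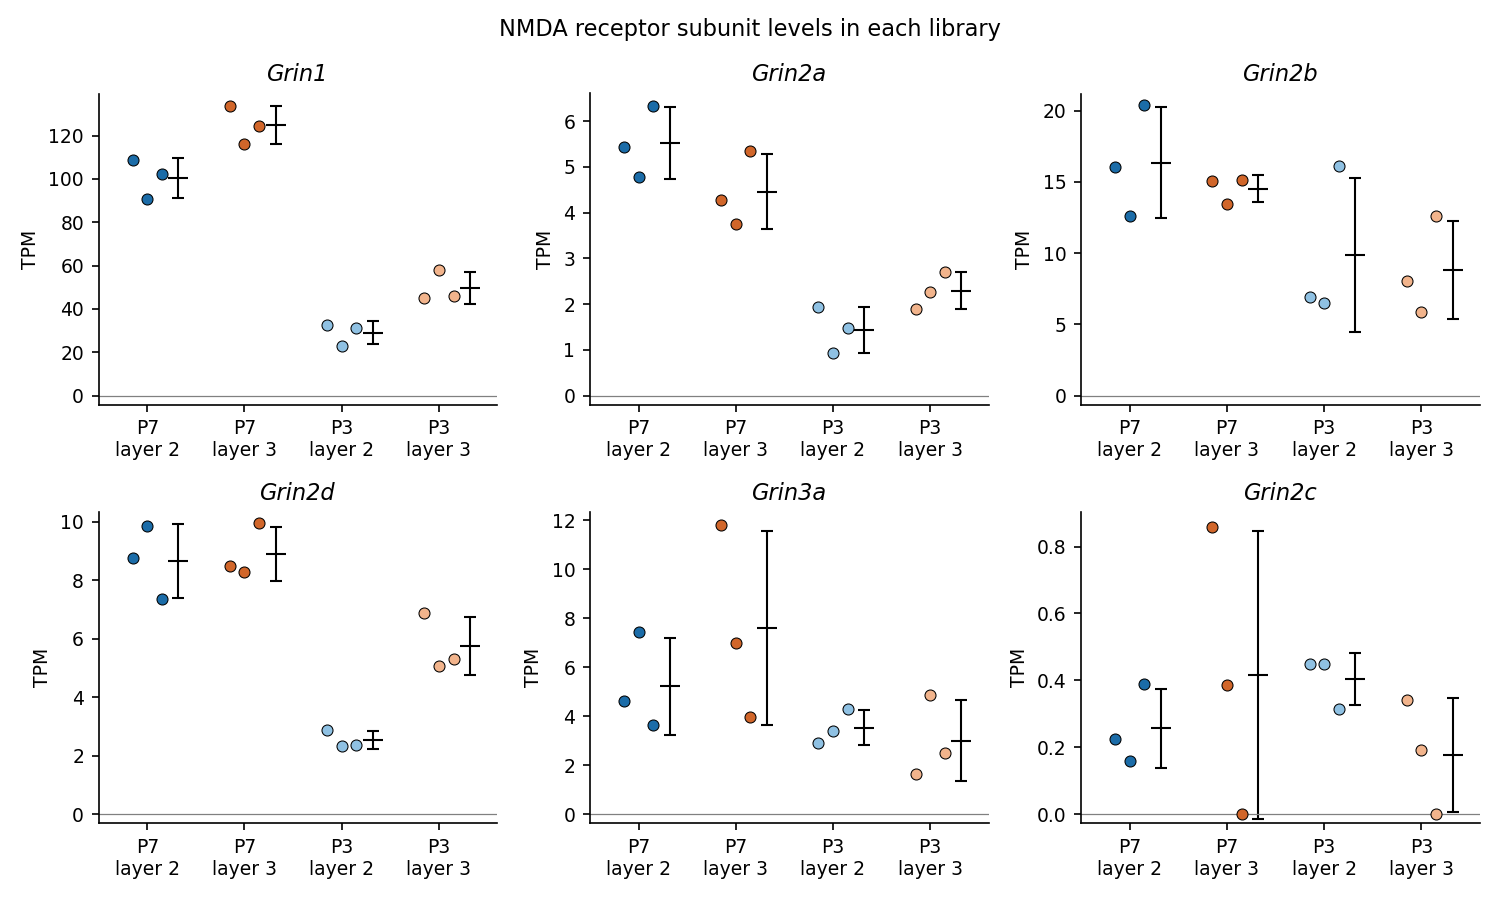
Levels of the 6 subunit genes in TPM on linear axes, one panel per gene, with a point for each library, a bar for the group mean and whiskers of 1 SD (n = 3), and groups in the order P7 layer 2, P7 layer 3, P3 layer 2, P3 layer 3. Grin1 runs from 22.8 to 134 TPM with 4 separate groups, Grin2a and Grin2d are higher in every P7 library than in every P3 library, and Grin2c stays under 1 TPM.

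Within each group the order of levels began with Grin1 and then Grin2b, and ended with Grin2c. In P7 layer 2 the ranges of Grin2b, Grin2d and Grin2a did not overlap, while Grin2a and Grin3a, with means of 5.52 and 5.22 TPM, did. In P7 layer 3 Grin3a averaged 7.59 ± 3.96 TPM and overlapped both Grin2d, at 8.90 ± 0.92 TPM, and Grin2a, at 4.46 ± 0.81 TPM (SD, n = 3 each). In P3 layer 2 Grin3a averaged 3.54 ± 0.72 TPM, above Grin2d at 2.53 ± 0.30 TPM and Grin2a at 1.44 ± 0.50 TPM, and the 3 ranges did not overlap. In P3 layer 3 Grin2d averaged 5.75 ± 0.98 TPM and overlapped Grin2b, and Grin3a, at 3.00 ± 1.67 TPM, overlapped Grin2a, at 2.29 ± 0.41 TPM.

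P7 was compared with P3 in layer 2 to ask which subunits differ between the ages in these neurons. Grin1, Grin2a and Grin2d rose, 3 of the 6 members, where 15% of the tested genes were called higher at P7. Grin1 averaged 101 TPM at P7 and 28.9 TPM at P3, a log2 fold change of 1.77 ± 0.16 (SE; limma, adjusted p = 5.189e-06). Grin2d averaged 8.67 TPM at P7 and 2.53 TPM at P3, a log2 fold change of 1.45 ± 0.22 (limma, adjusted p = 0.0003544). Grin2a averaged 5.52 TPM at P7 and 1.44 TPM at P3, a log2 fold change of 1.43 ± 0.25 (limma, adjusted p = 0.001087). Every P7 library lay above every P3 library for these 3 genes, as was so for 26.3% of the tested genes. Differences are of mean log2(TPM + 1), which understates the change of low genes, and a gene was called at an adjusted p under 0.05 over all 17606 tested genes.

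Grin2b and Grin3a did not pass the test in layer 2. Grin2b had a log2 fold change of 0.76 ± 0.32 with a 95% interval of 0.06 to 1.46 (limma, adjusted p = 0.1059). Without P3 layer 2 replicate 3, its high P3 library, the log2 fold change was 1.14 and Grin2b was called (limma, adjusted p = 0.01686). Grin3a had a log2 fold change of 0.42 ± 0.38 with a 95% interval of -0.40 to 1.24 (limma, adjusted p = 0.4555). The same 3 members were called without the 3 libraries that stood apart.

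In layer 3, Grin1 was the 1 member called, where 14.4% of the tested genes were called higher at P7. It averaged 125 TPM at P7 and 49.6 TPM at P3, a log2 fold change of 1.32 ± 0.16 (limma, adjusted p = 9.678e-05). The other 4 tested members had positive log2 fold changes that missed the threshold. These were 0.73 ± 0.25 for Grin2a (limma, adjusted p = 0.05528), 1.08 ± 0.38 for Grin3a (limma, adjusted p = 0.06), 0.56 ± 0.22 for Grin2d (limma, adjusted p = 0.08477) and 0.72 ± 0.32 for Grin2b (limma, adjusted p = 0.1342). The P7 and P3 ranges of Grin1, Grin2a, Grin2b and Grin2d did not overlap, as was so, with P7 higher, for 23.2% of tested genes. Leaving out 1 library brought 2 calls in place of 1 in 3 cases: Grin3a was called without P7 layer 3 replicate 3 (adjusted p = 0.02773) and without P3 layer 3 replicate 2 (adjusted p = 0.01828), and Grin2a without P3 layer 2 replicate 2 (adjusted p = 0.04963).

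As the mean over the layers, all 5 tested members were called higher at P7, where 23.6% of tested genes were. The log2 fold changes were 1.55 ± 0.11 for Grin1, 1.08 ± 0.18 for Grin2a, 1.00 ± 0.15 for Grin2d, 0.75 ± 0.27 for Grin3a and 0.74 ± 0.23 for Grin2b, with adjusted p = 3.804e-07, 0.0003696, 0.0002103, 0.04322 and 0.02245 from limma. The call for Grin2b ended in 9 of 24 alternatives, 3 of them among the 12 fits that each left out 1 library, and the call for Grin3a in 14 of 24, with 9 of those 12 among them. Both calls ended without the 3 libraries that stood apart, at adjusted p = 0.1299 for Grin2b and 0.2435 for Grin3a, which left 3 calls in place of 5. Both also ended without P3 layer 2 replicate 1 (adjusted p = 0.05463 and 0.08627) and without P3 layer 2 replicate 2 (adjusted p = 0.05809 and 0.07535), and that of Grin2b without P7 layer 2 replicate 3 (adjusted p = 0.0603). The calls for Grin1, Grin2a and Grin2d held under all 24 alternatives.

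The mean log2(TPM + 1) of 12 pan-neuronal genes was 8.51 ± 0.09 in P7 layer 2, 8.67 ± 0.07 in P7 layer 3, 7.71 ± 0.28 in P3 layer 2 and 8.20 ± 0.10 in P3 layer 3 (SD, n = 3 each). Of these 12 genes, 7 were called higher and 0 lower at P7 in layer 2, and 4 higher and 2 lower in layer 3, so the list itself is not a constant measure of neurons. The summed level of 9 progenitor and radial glia markers ran from 950 to 2642 TPM in P7 layer 2. It ran from 4047 to 6814 TPM in P3 layer 2, with no overlap. In layer 3 it was 353 to 1359 TPM at P7 and 720 to 1806 TPM at P3. Most of that sum was Fabp7, which averaged 1480, 718, 4805 and 1066 TPM in P7 layer 2, P7 layer 3, P3 layer 2 and P3 layer 3. Of the 8 tested markers, 5 were called lower at P7 in layer 2, where 9.33% of all tested genes were. In layer 3, 1 was called lower, where 6.42% of all tested genes were. Sox2, Pax6 and Hes5 were not called in either layer. In bulk RNA, fewer cells of a type and less RNA per cell cannot be told apart. With every library centred on its pan-neuronal mean, which moved the median of all genes to -0.65 in layer 2 and -0.21 in layer 3, the log2 fold changes in layer 2 were 1.00 for Grin1, 0.89 for Grin2a and 0.82 for Grin2d, still called at adjusted p = 9.143e-05, 0.007376 and 0.01145. Those of Grin2b and Grin3a were then 0.03 and -0.22. In layer 3 Grin1 kept 0.86 (limma, adjusted p = 0.000607).

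**Figure D2:**
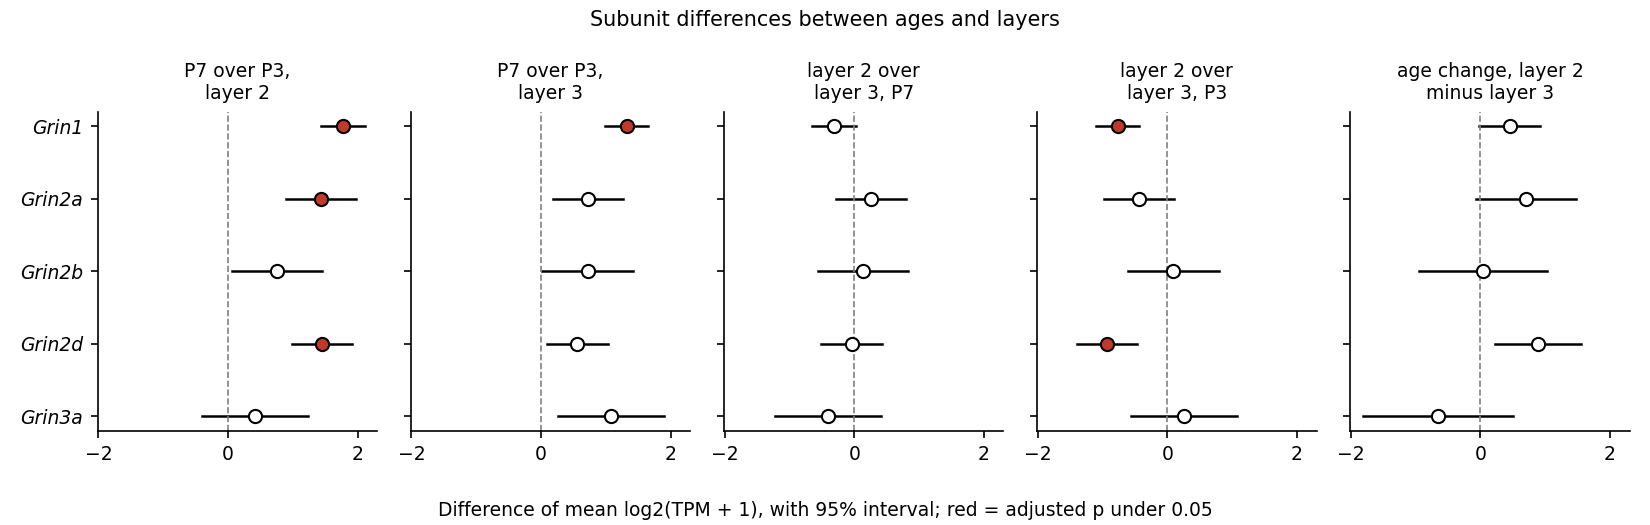
Log2 fold changes of the 5 tested subunits on the log2(TPM + 1) scale with 95% intervals, one panel each for P7 against P3 in layer 2 and layer 3, layer 2 against layer 3 at P7 and P3, and the difference between the age changes of layer 2 and layer 3, with red points where the adjusted p was under 0.05. All points of the age changes lie above 0, and Grin1 has the intervals farthest from 0 in both layers (1.44 to 2.11 in layer 2).

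Layer 2 was set against layer 3 at P3 to ask which subunits differ between the layers. Grin1 and Grin2d were lower in layer 2, 2 of the 6 members, where 4.18% of tested genes were called lower. Grin1 averaged 28.9 TPM in layer 2, against 49.6 TPM in layer 3, a log2 fold change of -0.77 ± 0.16 (limma, adjusted p = 0.008543). Grin2d averaged 2.53 TPM in layer 2, against 5.75 TPM in layer 3, a log2 fold change of -0.93 ± 0.22 (limma, adjusted p = 0.01818). For Grin2a, Grin2b and Grin3a the log2 fold changes were -0.44 ± 0.25, 0.09 ± 0.32 and 0.25 ± 0.38, with adjusted p = 0.3141, 0.9027 and 0.7521 from limma.

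The ranges of both genes did not overlap between the layers, as was so, with layer 2 lower, for 11% of tested genes. Neuronal and progenitor transcripts differed between the same groups, and their part in these 2 calls was not tested. Progenitor marker sums were 4047 to 6814 TPM in P3 layer 2 and 720 to 1806 TPM in P3 layer 3, all 8 tested markers of that list were called higher in layer 2, and the pan-neuronal means were 7.71 and 8.20. Of 12 astrocyte markers, 6 were called higher in P3 layer 2 as well, with sums of 753 to 849 TPM in P3 layer 2 and 179 to 466 TPM in P3 layer 3. Centred on the pan-neuronal list, which moved the median of all genes to 0.49, Grin1 had -0.30 (limma, adjusted p = 0.07702) and Grin2d -0.57 (limma, adjusted p = 0.07366), and neither was called. With the compared groups fitted alone, the log2 fold changes of Grin1 and Grin2d were the same, at -0.77 and -0.93, and neither was called (limma, adjusted p = 0.06072 and 0.06891). The Grin2d call ended without the 3 libraries that stood apart (adjusted p = 0.1219), and in fits that lacked replicate 2 or 3 of P3 layer 2 (adjusted p = 0.07113 and 0.0601) or replicate 1 of P3 layer 3 (adjusted p = 0.0586), which left 1 call in place of 2.

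At P7, limma called 0 of the 5 tested members between the layers, and 0 had an unadjusted p under 0.05, where 0.5% of tested genes were called in either direction. Grin1 averaged 101 TPM in layer 2, against 125 TPM in layer 3, with ranges that did not overlap, and a log2 fold change of -0.31 with a 95% interval of -0.65 to 0.02 (limma, adjusted p = 0.5503). Ranges did not overlap, with layer 2 lower, for 11.9% of tested genes. Grin2d averaged 8.67 TPM in layer 2, against 8.90 TPM in layer 3, with a log2 fold change of -0.04 and a 95% interval of -0.51 to 0.43. The intervals of Grin2a, Grin2b and Grin3a reached from -0.28 to 0.80, from -0.56 to 0.83 and from -1.22 to 0.41. As the mean over the ages, Grin1 was the 1 member called lower in layer 2, where 3.9% of tested genes were (log2 fold change -0.54 ± 0.11; limma, adjusted p = 0.009475). That call ended with centring on the pan-neuronal list (-0.23, adjusted p = 0.07354).

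The difference between the age changes of the layers was tested itself. Limma called 0 of the 5 tested members, and 1 had an unadjusted p under 0.05, where 0.182% of tested genes were called in either direction. That member was Grin2d, whose age change was larger by 0.89 ± 0.31 in layer 2 (limma, unadjusted p = 0.01206, adjusted p = 0.2729). The age change of Grin2a was larger in layer 2 by 0.70 ± 0.36 and that of Grin1 by 0.45 ± 0.22 (limma, adjusted p = 0.4714 and 0.4527). A call in layer 2 and not in layer 3 was not shown to be a difference between the layers for any subunit.

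The ratio of Grin2a to Grin2b, a measure of the makeup of GluN2 RNA that needs no scaling between libraries, was below 1 in every library. It was 0.340, 0.379 and 0.311 in P7 layer 2, 0.285, 0.279 and 0.354 in P7 layer 3, 0.278, 0.142 and 0.0911 in P3 layer 2, and 0.236, 0.389 and 0.215 in P3 layer 3. All P7 layer 2 libraries lay above all P3 layer 2 libraries. The lowest ratio came from P3 layer 2 replicate 3, where Grin2b was 16.1 TPM, against 6.94 and 6.53 TPM in replicates 1 and 2. The next lowest, in P3 layer 2 replicate 2, rests on a Grin2a level of 0.929 TPM, which has no stated precision. The highest ratio of all came from P3 layer 3 replicate 2, so that layer 3 ratios overlapped between the ages. The means were 0.343 ± 0.034, 0.306 ± 0.042, 0.171 ± 0.097 and 0.280 ± 0.095 in P7 layer 2, P7 layer 3, P3 layer 2 and P3 layer 3 (SD, n = 3 each).

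In layer 2 the mean log2 ratio was higher by 1.16 ± 0.39 at P7 than at P3, a 2.23-fold difference of geometric means (exact two-sided permutation test, p = 0.1, adjusted p = 0.2917 over 7 comparisons). That is the smallest p that 3 libraries against 3 can give. In layer 3 it was higher by 0.17 ± 0.39 at P7 (exact permutation, p = 0.6). As the mean over the layers it was higher by 0.66 ± 0.28 (exact permutation, p = 0.065, adjusted p = 0.2917). Of the 7 comparisons 0 passed, but those of 3 libraries against 3 could not pass at 0.05. The difference between the age changes was 0.99 ± 0.56 (exact permutation of layers within each age, p = 0.125). That permutation assumes no layer difference at either age, so its p does not test equal age changes alone. Layer 2 against layer 3 differed by 0.17 at P7 and by -0.82 at P3 (exact permutation, p = 0.3 for each). The ratio was also placed as 1 more row in the limma model, which borrows spread from genes of like level. It was then called in layer 2 (limma, adjusted p = 0.02715) and as the mean over the layers (limma, adjusted p = 0.04978). Group means of the log2 ratio ran from -2.705 in P3 layer 2 to -1.548 in P7 layer 2, while log2(TPM + 1) is never below 0. The borrowed spread was therefore extrapolated beyond all genes, and these calls turned on the test used. Without P3 layer 3 replicate 2 the mean over the layers was 0.80 (exact permutation, adjusted p = 0.035). That library held the highest ratio of all. With it left out, every P7 ratio lay above every P3 ratio of the same layer. The low p follows from leaving out the overlapping library and is no separate test of an age difference.

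**Figure D3:**
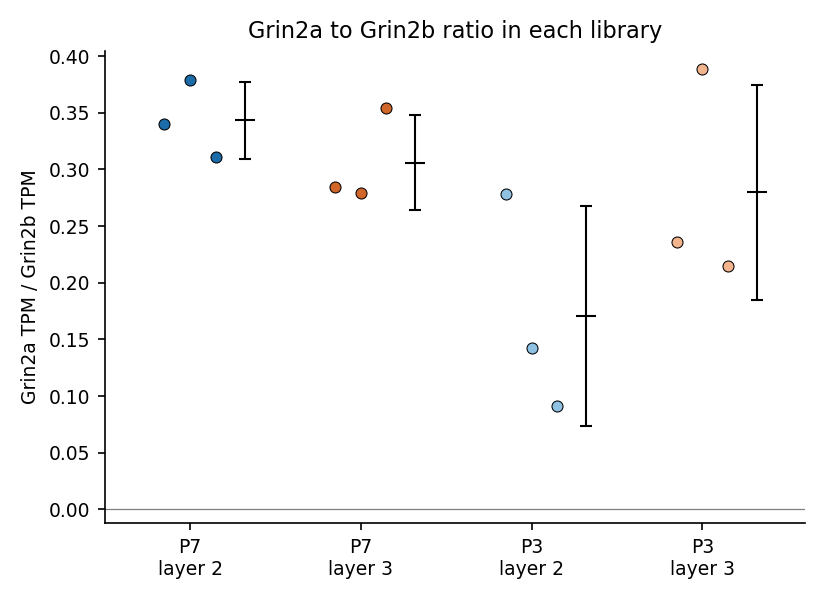
Grin2a TPM divided by Grin2b TPM in each library on a linear axis, with group means and whiskers of 1 SD (n = 3), in the order P7 layer 2, P7 layer 3, P3 layer 2, P3 layer 3. P7 libraries lie between 0.279 and 0.379, and P3 libraries spread from 0.0911 to 0.389.

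Summed over Grin2a, Grin2b, Grin2c and Grin2d, the GluN2 genes had 30.8 ± 3.54 TPM in P7 layer 2, 28.3 ± 2.30 in P7 layer 3, 14.3 ± 5.34 in P3 layer 2 and 17.0 ± 3.61 in P3 layer 3 (SD, n = 3 each). Grin2b made up 52.6% ± 6.60, 51.4% ± 1.49, 66.7% ± 11.6 and 50.6% ± 9.25 of that sum in P7 layer 2, P7 layer 3, P3 layer 2 and P3 layer 3 (SD, n = 3 each). The ranges of the Grin2b share were 46.0% to 59.2% in P7 layer 2 and 56.9% to 79.5% in P3 layer 2, which overlapped. Grin2d held 28.7%, 31.4%, 19.4% and 34.6% in the same groups, and Grin2a 17.9%, 15.7%, 10.7% and 13.7%. The Grin2a share was 17.4% to 18.4% in P7 layer 2 and 7.24% to 15.8% in P3 layer 2, with no overlap. Grin2c held at most 4.37% in any library. Grin1 TPM divided by the GluN2 sum was 3.28 ± 0.30 in P7 layer 2, 4.42 ± 0.30 in P7 layer 3, 2.15 ± 0.58 in P3 layer 2 and 3.06 ± 1.12 in P3 layer 3 (SD, n = 3 each).

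**Figure D4:**
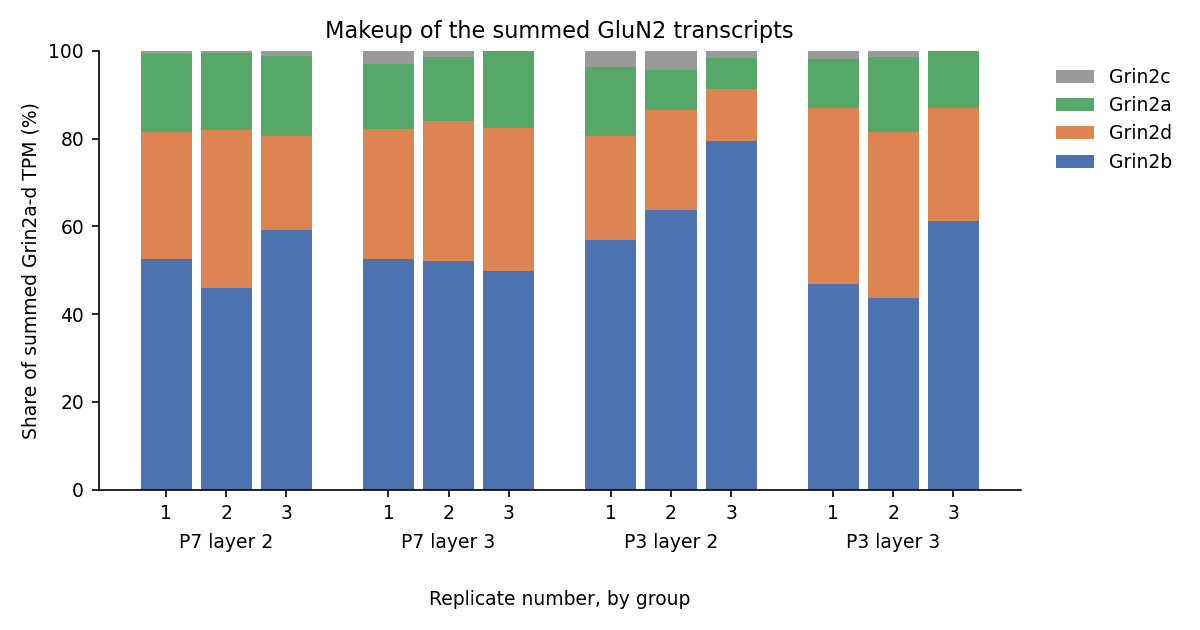
Share of the summed Grin2a to Grin2d TPM held by each GluN2 gene, as stacked bars from 0 to 100%, one per library, in the order P7 layer 2, P7 layer 3, P3 layer 2, P3 layer 3. Grin2b is the largest share in all 12 bars and reaches 79.5% in P3 layer 2 replicate 3.

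The genes whose levels most resembled those of Grin2a and Grin2b were picked from 10802 genes with a mean of at least 5 TPM by Pearson's r of log2(TPM + 1) over the 12 libraries. The libraries fall into 4 groups, so these values hold the age difference and are given as a description. Closest to Grin2a were Osbpl1a (r = 0.983), Nsmce3 (0.972), Trpa1 (0.971), Gnao1 (0.970) and B4galt6 (0.970). Osbpl1a, an oxysterol-binding protein gene, averaged 911, 747, 218 and 387 TPM in P7 layer 2, P7 layer 3, P3 layer 2 and P3 layer 3, and so had the same order of groups as Grin2a. Gnao1, which encodes the G protein subunit alpha o, averaged 541, 516, 224 and 322 TPM in those groups. Among the closest to Grin2b were Nav1 (0.903), Rgs17 (0.898), Srgap3 (0.882) and Rgs7bp (0.875). Nav1, a neuron navigator gene, averaged 37.4, 35.8, 21.5 and 23.0 TPM in P7 layer 2, P7 layer 3, P3 layer 2 and P3 layer 3. Rgs17, a regulator of G protein signalling, averaged 15.4, 18.7, 7.35 and 8.40 TPM.

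Of 18 scaffold and adaptor genes tied to NMDA receptors, all tested, 12 were called higher and 0 lower at P7 in layer 2, where 15% of all tested genes were called higher and 9.33% lower. Their median log2 fold change was 0.79, against 0.03 for all tested genes. Of the 12 pan-neuronal genes, 7 were called higher and 0 lower in layer 2, with a median of 0.63. In layer 3, 4 of the pan-neuronal genes were called higher and 2 lower, with a median of 0.22. A rise with age was thus not particular to the scaffold list. The largest changes were in Dlgap2, a partner of the PSD-95 family (2.06 ± 0.25, 12.9 TPM at P7 and 2.25 TPM at P3), Dlg3, which encodes SAP102 (1.64 ± 0.20, 77.7 and 24.7 TPM at P7 and P3), and the kinase anchor Akap5 (1.61 ± 0.24). Dlg4, which encodes PSD-95, had 32.6 TPM at P7 and 17.8 TPM at P3 and was also called (0.84 ± 0.21; limma, adjusted p = 0.009388). In layer 2 the other 6 were not called. In layer 3, 7 were called higher, 1 lower and 10 neither way, where 14.4% and 6.42% of all tested genes were, with a median of 0.59 against 0.17. The neurofilament gene Nefl had the largest change there (3.40 ± 0.27, 165 TPM at P7 and 15.1 TPM at P3), followed by Dlg1 (1.92 ± 0.20) and Dlgap2 (1.81 ± 0.25), while Dlgap4 was lower (-0.40 ± 0.12), a call that ended without the 3 libraries that stood apart (adjusted p = 0.1325). The age change of Nefl was smaller in layer 2 by 2.85 ± 0.38, the 1 such difference called in the 6 pathway lists (limma, adjusted p = 0.01066, and 0.05679 without the 3 libraries that stood apart).

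Of 22 kinases, phosphatases and calcium effectors that act on or downstream of the receptor, all tested, 15 were called higher and 0 lower at P7 in layer 2, with a median of 0.92, where 15% and 9.33% of all tested genes were. In layer 3, 13 were called higher and 0 lower, with a median of 0.80, where 14.4% and 6.42% of all tested genes were. The remaining 7 in layer 2 and 9 in layer 3 were not called. The pan-neuronal list also rose, with medians of 0.63 in layer 2 and 0.22 in layer 3. Camk2a, the alpha subunit of the kinase that binds GluN2B, averaged 53.2 TPM at P7 and 6.04 TPM at P3 in layer 2 (2.95 ± 0.15; limma, adjusted p = 1.26e-07), and 94.3 TPM at P7 and 13.2 TPM at P3 in layer 3 (2.75 ± 0.15; limma, adjusted p = 6.117e-07). The exchange factor gene Rasgrf1 had a log2 fold change of 2.17 ± 0.44 in layer 2, and Camk2d one of 3.19 ± 0.31 in layer 3.

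Of 18 trafficking and surface genes, 7 were called higher and 1 lower at P7 in layer 2 (median 0.42), where 15% and 9.33% of all tested genes were, and 6 higher and 0 lower in layer 3 (median 0.27), where 14.4% and 6.42% were. Kif17, a kinesin that carries GluN2B, averaged 7.99 TPM at P7 and 0.577 TPM at P3 in layer 2 (2.62 ± 0.38; limma, adjusted p = 0.0002864), and had 1.83 ± 0.38 in layer 3. Its adaptor Lin7b had 2.35 ± 0.23 in layer 2 and 1.46 ± 0.23 in layer 3, Nlgn1 1.31 ± 0.28 in layer 2, and the endocytic adaptor Numb 1.42 ± 0.31 in layer 3. Ephb1 was lower in layer 2 (-0.71 ± 0.24), a call that held in 5 of the 12 fits that each left out 1 library. Without the 3 libraries that stood apart, 2 trafficking genes were called in layer 3 in place of 6. With centring on the pan-neuronal list, the layer 2 calls of Nlgn1, Srr, Slc6a9 and Mef2c ended (adjusted p = 0.0818, 0.3421, 0.7803 and 0.5013).

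Of 15 genes of the supply of glycine and D-serine, 13 were tested, and 2 were called higher and 3 lower at P7 in layer 2 (median -0.38), and 2 higher and 1 lower in layer 3 (median 0.21). The shares over all tested genes were 15% higher and 9.33% lower in layer 2, and 14.4% higher and 6.42% lower in layer 3, so apart from the lower calls in layer 2 these counts were near those of all genes. The serine racemase Srr, which makes D-serine, averaged 74.2 TPM at P7 and 39.3 TPM at P3 in layer 2 (0.94 ± 0.18), and the glycine transporter Slc6a9 had 0.82 ± 0.19 in layer 2 and 1.57 ± 0.19 in layer 3. Shmt1 and Shmt2, the serine hydroxymethyltransferases that form glycine, were lower in layer 2 (-1.70 ± 0.31 and -0.49 ± 0.15), as was the transporter Slc1a5 (-1.28 ± 0.44). In layer 3 the transporter Slc1a4 was higher (0.93 ± 0.24) and Shmt2 lower (-0.61 ± 0.15). The calls of Shmt2 and Slc1a5 in layer 2 ended without replicate 1 or 3 of P7 layer 2 or replicate 2 or 3 of P3 layer 2, among others, and that of Slc1a4 without P7 layer 3 replicate 1 or replicate 1 or 3 of P3 layer 3. Without the 3 libraries that stood apart, 3 genes of this list were called in layer 2 in place of 5, and 1 in layer 3 in place of 3.

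Of 17 chromatin and transcription factors described as regulators of subunit genes, all tested, 1 was called higher and 1 lower at P7 in layer 2 (median -0.25), and 1 higher and 2 lower in layer 3 (median 0.07). The share called higher was below that of all tested genes, of which 15% were called higher and 9.33% lower in layer 2 and 14.4% and 6.42% in layer 3. Mef2c had 0.90 ± 0.15 and the Polycomb methyltransferase Ezh2 -1.32 ± 0.26 in layer 2. In layer 3 Ezh2 had -1.03 ± 0.26 and the corepressor Sin3a -0.70 ± 0.21, calls that ended without replicate 3 of either group compared, and the call for Rcor1 (0.54 ± 0.18) ended whichever library was left out. Of the 11 AMPA, kainate and delta receptor genes, 2 were called higher at P7 in layer 2 (median 0.28), near the 15% of all tested genes, Gria3 with 1.61 ± 0.24 and Gria1 with 1.59 ± 0.20. In layer 3, 6 were called higher (median 1.01), where 14.4% of all tested genes were, led by the kainate subunit gene Grik1 (2.48 ± 0.51), Gria3 (2.03 ± 0.24) and Gria4 (1.76 ± 0.36). None of the 11 was called lower in either layer by limma.

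**Figure D5:**
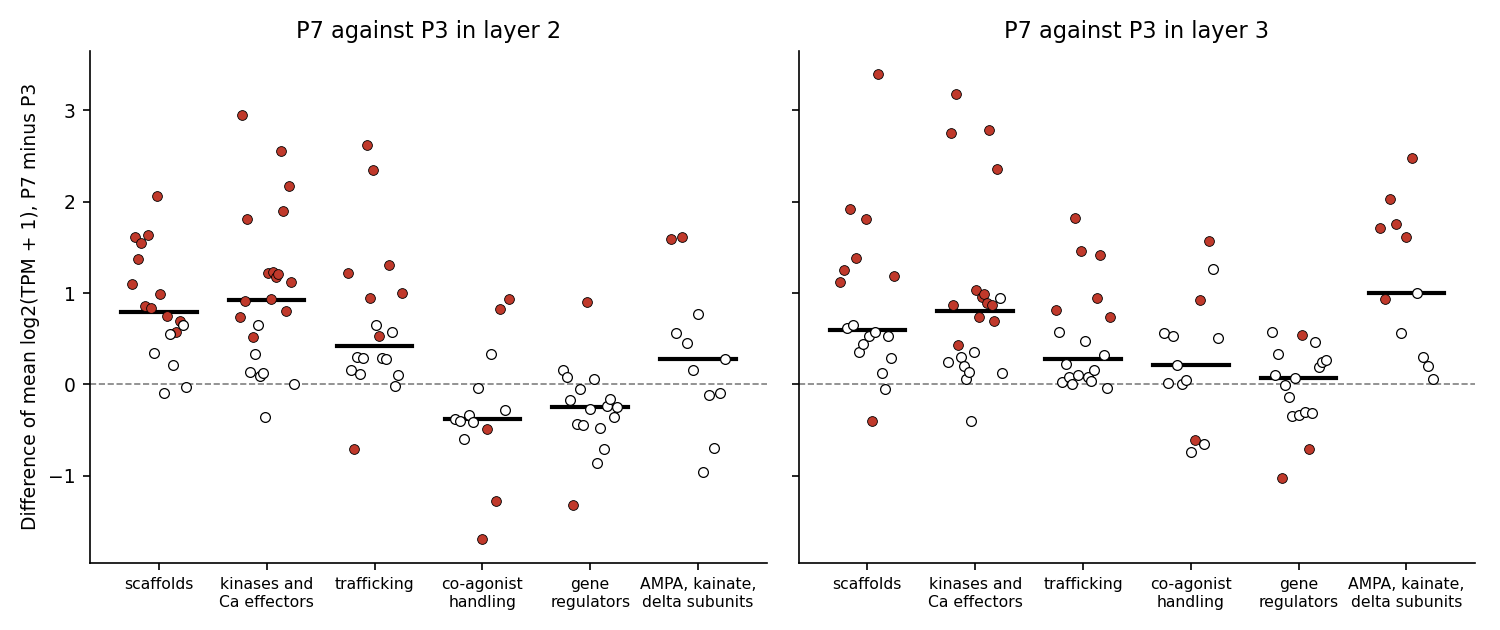
Difference of mean log2(TPM + 1), P7 minus P3, for each tested gene of the 6 pathway lists in layer 2 (left) and layer 3 (right), with red points for genes called at an adjusted p under 0.05, white points for the rest and a bar at the list's median. Kinases and scaffolds have 15 of 22 and 12 of 18 red points above 0 in layer 2 and 0 below it, while the medians of co-agonist genes and gene regulators lie below 0 there.

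Between the layers at P3, 4.87% of all tested genes were called higher in layer 2 and 4.18% lower. A count of 1 call in a direction, as in the scaffold, kinase and regulator lists, was near these shares. Of the scaffold genes, 4 were lower and 1 higher in layer 2, with a median of -0.43 against 0.06 for all tested genes. Among the lower were Cnksr2 (-1.08 ± 0.21), Dlgap3 (-0.74 ± 0.20) and Shank2 (-0.62 ± 0.17), and the Src-family kinase gene Yes1 was higher (1.17 ± 0.31). Of the kinase list, 3 were lower, among them Ptk2b (-1.24 ± 0.19) and Camk2a (-1.01 ± 0.15), and Camk2d was higher (1.15 ± 0.31). Of the trafficking list, 5 were lower, led by Lin7a (-1.50 ± 0.28), Kif17 (-1.36 ± 0.38) and Lin7b (-0.82 ± 0.23). Of the co-agonist list, 4 were higher in layer 2, Gldc (1.95 ± 0.43), Phgdh (1.84 ± 0.52), Psat1 (0.94 ± 0.28) and Gcsh (0.68 ± 0.19), enzymes of glycine cleavage and serine synthesis. Of the regulators Ezh2 was higher (0.93 ± 0.26) and Mef2c lower (-0.70 ± 0.15). The calls of Cnksr2, Ptk2b, Camk2a, Lin7a and Mef2c held with each library left out, and each of the other genes just named lost its call without P3 layer 2 replicate 2 and also without P3 layer 3 replicate 1. Centring on the pan-neuronal list ended the call of Mef2c (limma, adjusted p = 0.1948). Astrocyte and progenitor marker sums did not overlap between the layers at P3 and were higher in layer 2, and their part in these differences was not tested. Without the 3 libraries that stood apart, the calls were 1 of 18 scaffold, 3 of 22 kinase, 1 of 18 trafficking, 0 of 13 co-agonist and 1 of 17 regulator genes. For the AMPA, kainate and delta genes limma called 0, and 0 had an unadjusted p under 0.05.

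At P7 the lists gave 3 calls between the layers, all lower in layer 2, where 0.5% of all tested genes were called in either direction. Nefl averaged 27.4 TPM in layer 2, against 165 TPM in layer 3 (-2.53 ± 0.27; limma, adjusted p = 0.001105). Grik1 averaged 2.20 TPM in layer 2, against 21.0 TPM in layer 3 (-3.01 ± 0.51; limma, adjusted p = 0.02173), a call that ended without P7 layer 2 replicate 1 or 3 or P7 layer 3 replicate 2 or 3. Camk2a averaged 53.2 TPM in layer 2, against 94.3 TPM in layer 3 (-0.82 ± 0.15; limma, adjusted p = 0.03323), a call that ended when any of the 6 libraries compared was left out. In the trafficking, co-agonist and regulator lists limma called 0, and 2, 3 and 3 genes had an unadjusted p under 0.05.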

How the data were processed

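The deposited table holds TPM that the authors computed for 56734 genes in 12 libraries. Per the submitters' processing notes the tools were HISAT2, StringTie and featureCounts and the build GRCm39; versions, strand setting and the treatment of shared reads are not given in the sources used here. Per the labels' protocols, RNA came from an RNeasy mini kit and libraries from a SMART-Seq mRNA LP kit. Each column summed to 1000000 and keeps no depth, so no counting error can be given. Replicates came from separate pools of pups.

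Groups followed the sample labels. The filter kept genes that reached 1 TPM in 3 or more libraries, and log2(TPM + 1) was fitted in limma-trend (limma 3.58.1, R 4.3.3) with 1 mean per group and 8 residual degrees of freedom. There were 7 comparisons, each with Benjamini-Hochberg adjustment over all tested genes. The Grin2a to Grin2b ratio was tested by exact permutation of libraries within layer or age. The code was tested on simulated data. Promoter sequences were taken by symbol from RefSeq on GRCm38.p6.

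The members and the 13 gene lists were chosen with earlier results of these data known. Named were the 6 members, the 5 genes most like Grin2a and Grin2b, and up to 3 called members of each pathway list in each direction with the largest changes, with a few cell type markers; Dlg4, Grin3b, Grin1os, Slc17a7, Ttr and Eif2s3y were chosen after their values were seen. Some genes under this rule are not reported here. Alternatives were a pseudocount of 0.1 or 5, a filter of 5 TPM or none, median-ratio scaling, quantile normalization, centring on pan-neuronal genes, the compared groups alone, a replicate block, robust moderation, array weights, a minimum log2 fold change of 1 in size, and libraries left out.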

Additional observations from a re-analysis of the deposited data

How the results depend on the processing

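The calls for Grin1, Grin2a and Grin2d in layer 2 and for Grin1 in layer 3 at P7 against P3 held under all 25 alternatives. The number of subunits called at P7 against P3 in layer 3, 1 as reported, was 2 with a pseudocount of 5 and 4 with array weights, and 1 to 2 with each library left out. As the mean over the layers it was 5 as reported, and 3 with median-ratio scaling, with centring on the pan-neuronal list, without the 3 libraries that stood apart and with a minimum log2 fold change of 1 in size, and 3 to 5 with each library left out. Between the layers at P3 it was 2 as reported, 0 with that centring, with the compared groups alone and with the fold change minimum, 1 without the 3 libraries and 1 to 2 with each left out. In 1 of the 25 alternatives Grin2a was called lower in layer 2 at P3 (limma, adjusted p = 0.04352). As the mean over the ages the number of subunits called was 1 as reported, 0 with centring and with the fold change minimum, and 2 with array weights. The causes were not tested. The mean age difference of the log2 Grin2a to Grin2b ratio ranged from 0.48 to 0.88 with each library left out. It was called without P3 layer 3 replicate 2 (0.80), the library with the highest ratio. Leaving that library out removed the only overlap between the ages within a layer, and the call followed from this. The limma model kept 1.16 in layer 2 and 0.66 over the layers and called both, on a spread extrapolated beyond all genes.

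Signs turned round only for differences that were not called, in the following cases. Between the layers at P7, Grin2d was at 0.0111 with median-ratio scaling, 0.0226 with quantile normalization and 0.10 with centring, and with each library left out it ran from -0.13 to 0.0616 and Grin2b from -0.0281 to 0.30. At P3, Grin2b was at -0.0441 with quantile normalization and -0.10 with array weights, and with each library left out it ran from -0.29 to 0.36 and Grin3a from -0.0108 to 0.57. Over the ages, centring gave 0.11 for Grin2a and 0.20 for Grin3a, and with each library left out Grin3a ran from -0.25 to 0.0937 and Grin2b from -0.0759 to 0.25. The age change of Grin3a in layer 2 was -0.22 with centring. The difference of age changes of Grin2b was -0.25 with centring, -0.11 without the 3 libraries, and -0.22 to 0.42 with each library left out.

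Replicate numbers did not pair the libraries: correlations of same-numbered deviations ran from -0.189 to 0.214, and 0 of 6 pairs of groups had all 3 over 0.1. The replicate block called 4 subunits at P7 against P3 in layer 2, Grin2b being the addition (limma, adjusted p = 0.03777). It changed no other call of a subunit. With the block the ratio differed by 1.16 in layer 2 (exact sign flips, adjusted p = 0.5833). Sign flips of 3 replicate differences cannot give a p under 0.05. That p therefore cannot show whether the ratio difference holds with the block.

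Over all tested genes, median-ratio scaling moved the median age difference in layer 3 to 0.00335, against 0.17 as deposited. Median-ratio scaling moved the share of called genes that were higher at P7 to 49.9% in layer 3, against 69.2% as deposited, and over the layers to 51%, against 64.9%. With each library left out, 14 to 125 genes were called between the layers at P7 (88 as reported), 657 to 1974 at P3 (1593) and 8 to 102 for the difference of age changes (32). Over the other settings the numbers ran from 1934 to 9478 for P7 against P3 in layer 2 (4280), 1503 to 7701 in layer 3 (3670), 1500 to 9392 over the layers (6397), 47 to 418 between the layers at P7, 591 to 6057 at P3, 483 to 4227 over the ages (1396) and 11 to 1103 for the difference of age changes. Depth is unknown, so values under 1 TPM, as of Grin2c, have no stated precision.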
